A study of Homo sapiens with 36 samples.

Results

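The alpha and beta globin loci were examined for CTCF peaks in HEK293T cells, an established line from human embryonic kidney. The peaks were chosen by position: every peak of the 6 deposited CTCF lists that overlapped chr16:60000-600000, the alpha globin window, or chr11:5100000-5450000, the beta globin window, both in the hg19 build. Overlapping or touching peaks of the 6 lists were joined into regions. The windows held 27 of the 54382 regions of the series, 23 in the alpha window (540 kb) and 4 in the beta window (350 kb). They are named A1 to A23 and B1 to B4, in order of position on the chromosome. No fold, p or q entered the choice of peaks, but the windows were chosen with earlier results of these data known.

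Cells of 6 conditions were compared. They had been transfected with a small interfering RNA against CHD3 (siCHD3), CHD4 (siCHD4), CHD5 (siCHD5), MBD2 (siMBD2) or MBD3 (siMBD3), or with siNC, which is taken as the control here, and chromatin was precipitated with an antibody to CTCF (ChIP-seq). CHD3, CHD4 and CHD5 are ATP-dependent helicases, and MBD2 and MBD3 are methyl-CpG-binding-domain proteins. All 5 belong to NuRD, a complex that moves nucleosomes and removes histone acetyl groups. Each condition had 3 immunoprecipitates and 3 inputs (36 samples), and each list pools the 3 replicates of 1 condition. Replicate spread is therefore unknown throughout, and conditions were compared without a test. Whether each target was depleted was not analysed here. All 5 comparisons share the siNC list.

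Hemoglobin genes are used by red blood cells and their precursors. The alpha cluster holds HBZ, the embryonic alpha-like chain, and the near-identical adult genes HBA2 and HBA1. The beta cluster holds HBB and HBD, the adult beta and delta chains, HBG1 and HBG2, the fetal gamma chains, and HBE1, the embryonic epsilon chain. Distant enhancers drive both clusters, those of the beta cluster being called the locus control region. CTCF is a DNA-binding zinc-finger factor found at insulators and loop anchors, and it is known to bind on both sides of each cluster. In the RefSeq gene table, whose assembly is GRCh38.p14, the order with increasing position is HBZ, HBA2 and HBA1 on chromosome 16 and HBB, HBD, HBG1, HBG2 and HBE1 on chromosome 11. Gene annotation and sequence of hg19 were not used here, so no region below is assigned to a gene, an enhancer or a named insulator, and no motif was searched. Expression was not analysed here, so that the globin genes are silent in these cells was not checked.

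The fold of a peak is the authors' enrichment at its summit over the local background of the same list, and it ranks peaks within that list. Folds of different lists are given side by side, and their levels are not compared. The pileup is the number of fragments that cover the summit, solved from the authors' fold and p. Depth means the lowest background of a list, a value set by how many fragments were sequenced and by their length. It was 0.445 fragments per bp in siCHD3, 1.06 in siCHD4, 0.640 in siMBD2, 0.374 in siMBD3 and 1.95 in siCHD5, against 2.96 in siNC. Where a list has no peak, shallow sequencing and less bound CTCF cannot be told apart by the call alone. Shares carry exact 95% intervals (Clopper-Pearson), which hold only the counting error.

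**Figure D1:**
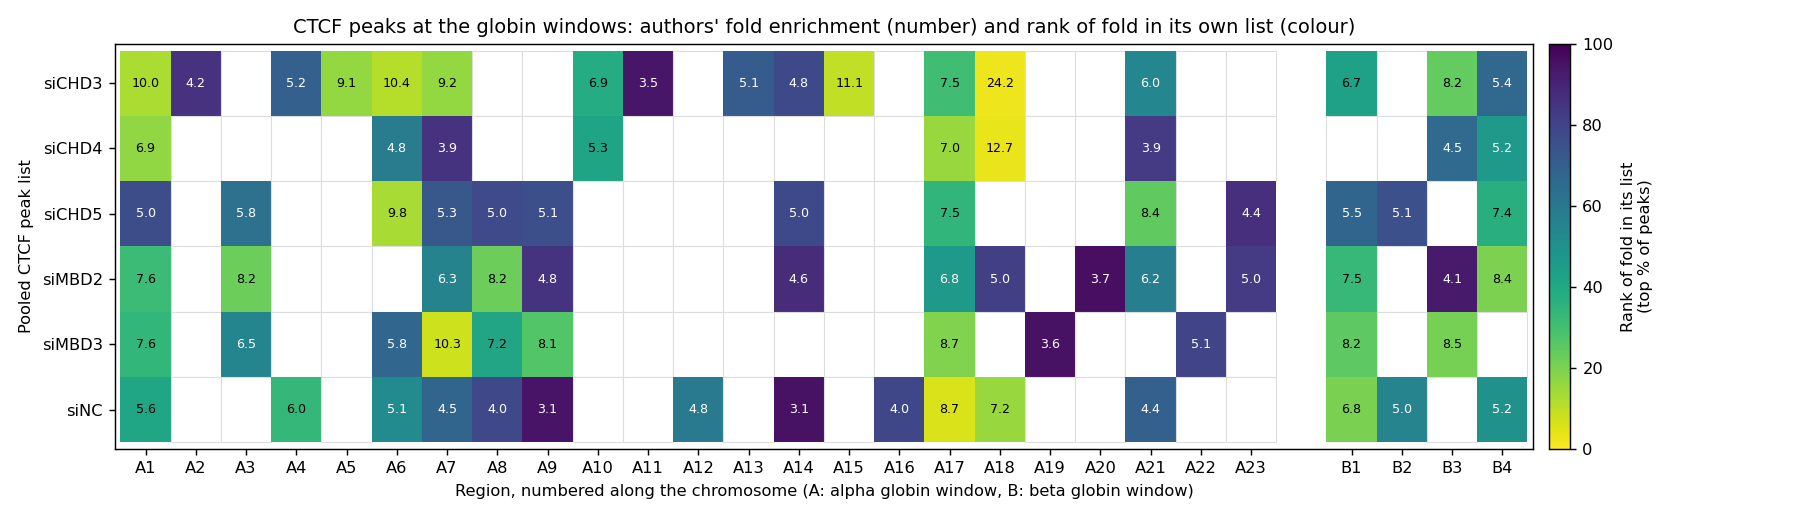
Regions of the alpha (A1 to A23) and beta (B1 to B4) globin windows (columns) in the 6 pooled CTCF peak lists (rows). The number in a cell is the authors' fold, the colour its rank within that list, and an empty cell marks a region with no peak in that list. A1, A7 and A17 are filled in all 6 rows, and B2 and B3 are filled in opposite rows.

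The beta window held 4 regions, and none was called in all 6 lists. B1 (chr11:5145321-5145672) and B4 (chr11:5401924-5402293), the outermost of the 4, were each called in 5 lists. B2 (chr11:5226107-5226347) and B3 (chr11:5262283-5262703) lay between them. B2 was called in siCHD5 and siNC, and B3 in the 4 other lists.

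B1 had a fold of 6.69 in siCHD3, 7.50 in siMBD2, 8.20 in siMBD3 and 5.54 in siCHD5, against 6.82 in siNC, and no peak in siCHD4. Its summit pileups were 19 fragments in siCHD3, 23 in siMBD2, 19 in siMBD3 and 38 in siCHD5, against 64 in siNC. B1 ranked in the top 24.7% of the siMBD3 list and the top 20.0% of the siNC list, but in the top 67.8% of siCHD5. The nearest siCHD4 peak was 116729 bp away. Thinned to the siCHD4 depth, which was 35.8% of that of siNC, the siNC summit of B1 corresponds to 22.9 fragments. Its chance of still passing the lowest p of the siCHD4 list was 99.97%, if libraries varied by counting error alone.

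B4 had a fold of 5.38 in siCHD3, 5.18 in siCHD4, 8.42 in siMBD2 and 7.38 in siCHD5, against 5.23 in siNC, and no peak in siMBD3. Pileups were 10 fragments in siCHD3, 23 in siCHD4, 16 in siMBD2 and 30 in siCHD5, against 47 in siNC. The 5 summits lay within 11 bp of each other. For the empty siMBD3 entry, the siNC summit thinned to the siMBD3 depth (12.6% of that of siNC) corresponds to 5.94 fragments, and its chance of passing was 55.5%. At the 7 siNC regions that siMBD3 did call, its pileup exceeded the thinned value each time. A region had to pass the threshold to enter that count, so whether this chance is too low was not tested. The same count over the whole list was not made.

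B2 had a fold of 5.09 in siCHD5 and 5.00 in siNC, with 24 fragments at the siCHD5 summit, 36 at the siNC summit and the summits 15 bp apart. It was of middling rank in siNC (top 55.1%) and low in siCHD5 (top 75.6%). In the other 4 knockdown lists the nearest peak was B3, at 35935 to 36070 bp. The chance that the siNC summit still passed was 46.1% at the siCHD3 depth, 94.0% at the siCHD4 depth, 68.8% at the siMBD2 depth and 30.0% at the siMBD3 depth. The chance was thus over 90% in siCHD4 only, and the part of depth in these absences was not tested.

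B3 was the reverse. Its fold was 8.16 in siCHD3, 4.52 in siCHD4, 4.12 in siMBD2 and 8.51 in siMBD3, and neither siCHD5 nor siNC, the 2 deepest lists, had a peak there. It ranked in the top 23.9% of the siCHD3 list and the top 20.9% of siMBD3, but in the top 65.6% of siCHD4 and the top 93.2% of siMBD2. These peaks rested on few fragments, with pileups of 11 in siCHD3, 9 in siCHD4, 6 in siMBD2 and 11 in siMBD3. The summits were spread over 93 bp, the widest spread of the 27 regions. At the lowest background of the siNC list, 11 fragments at the summit (fold 3.03) pass its lowest p. Scaled to the siNC depth, the B3 pileups correspond to 73.2 fragments from siCHD3, 25.1 from siCHD4, 27.7 from siMBD2 and 87.1 from siMBD3. Only lists that called B3 enter these values, which may therefore run high. They also multiply the counting error of few fragments, and the scaling takes pileups to follow depth. Median pileups of the whole lists were 15 fragments in siCHD3, 26 in siCHD4, 21 in siMBD2 and 16 in siMBD3, against 59 in siNC. These medians differed by a smaller ratio than the depths, so values scaled up from these lists may run high at any region. Whether siNC should hold a peak was not tested. The nearest siNC peak, B2, was 35935 bp away.

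The 2 patterns differ in how common they are. Regions called in siNC and siCHD5 and in no other list, as B2 was, made up 3.50% of the 54382 regions. Regions called in siCHD3, siCHD4, siMBD2 and siMBD3 but in neither siCHD5 nor siNC, as B3 was, made up 0.0993% (54 regions). Both patterns were picked out after the calls were seen, and 1 region each of 27 says nothing of their share at the globin loci.

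**Figure D2:**
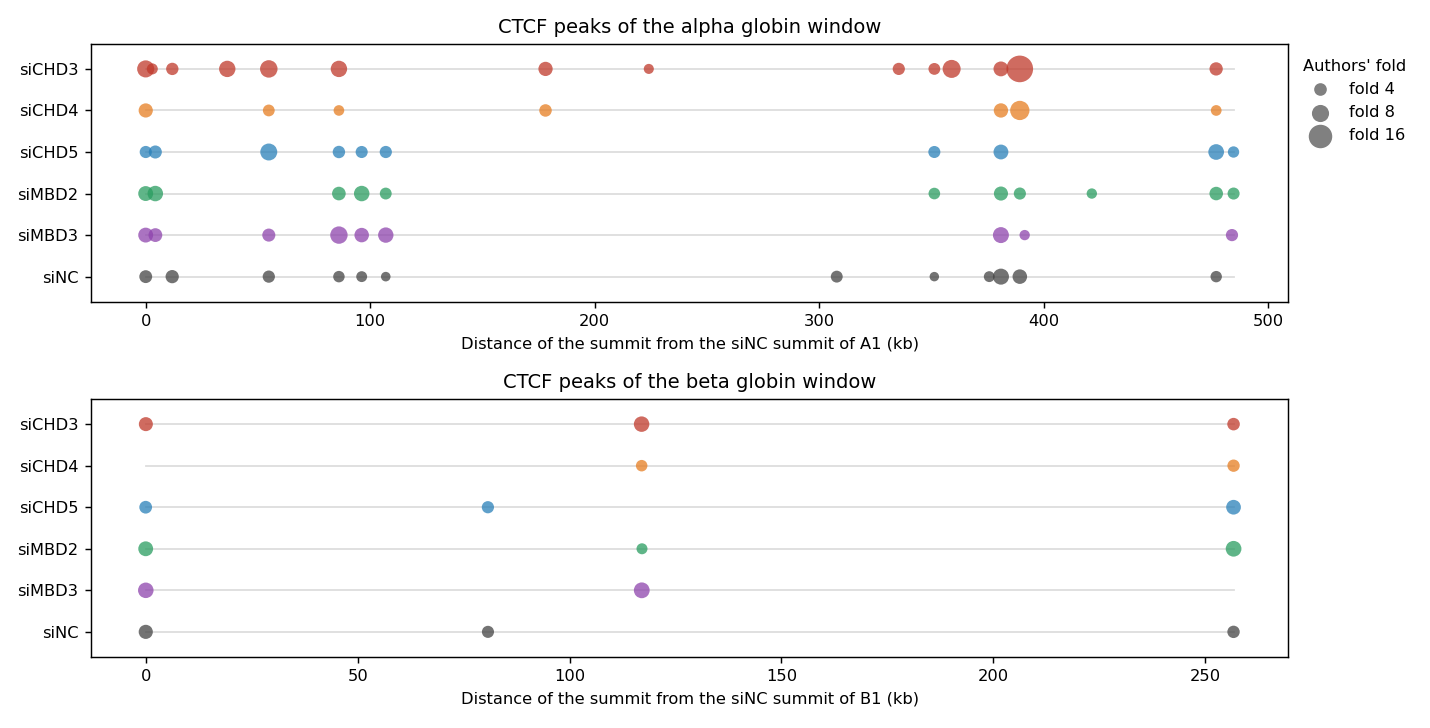
Summits of the CTCF peaks along the alpha window (top) and the beta window (bottom), as distance in kb from the siNC summit of A1 or B1. Each row is 1 pooled list, and the area of a point follows the authors' fold. A1, A7 and A17 have a point in every row, B2 and B3 have points in opposite rows, and in siNC a gap of 200.6 kb follows A9.

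The alpha window held more peaks per length than the beta window in every list. It had 14 peaks in siCHD3, 7 in siCHD4, 11 in siMBD2, 9 in siMBD3 and 10 in siCHD5, against 12 in siNC, or 13.0 (siCHD4) to 25.9 (siCHD3) per Mb. Over chromosome 16, the density was 9.06 (siMBD2) to 13.3 (siCHD3) per Mb of the span between its outermost peaks. The beta window had 3 peaks in siCHD3, siCHD5, siMBD2 and siNC and 2 in siCHD4 and siMBD3. That is 8.57 or 5.71 per Mb, below the density of chromosome 11 in each list (9.11 in siCHD4 to 13.3 in siNC). These are densities of single windows and were not tested.

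A1, A7 and A17 were called in all 6 lists, 3 of the 27 regions (11.1%, interval 2.35 to 29.2), against 21.7% of all regions. A1 (chr16:60820-61234) was the first peak of chromosome 16 in each list. Its fold was 9.96 in siCHD3, 6.88 in siCHD4, 7.57 in siMBD2, 7.57 in siMBD3 and 5.05 in siCHD5, against 5.64 in siNC. Its siNC pileup of 165 fragments, over a local background of 28.4, was the highest siNC pileup of both windows. A1 ranked in the top 12.5% of siCHD3 but in the top 76.7% of siCHD5.

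A7 (chr16:146865-147213) had a fold of 9.16 in siCHD3, 3.86 in siCHD4, 6.35 in siMBD2, 10.3 in siMBD3 and 5.26 in siCHD5, against 4.50 in siNC. Its rank differed most between siMBD3, where it was in the top 7.42%, and siCHD4, where it was in the top 85.4%. A17 (chr16:441795-442206) had a fold of 7.53 in siCHD3, 7.02 in siCHD4, 6.79 in siMBD2, 8.70 in siMBD3 and 7.51 in siCHD5, against 8.75 in siNC. It was the strongest siNC peak of both windows (top 5.73%) and stood in the top 50% of every knockdown list, from the top 15.6% in siCHD4 to the top 46.4% in siMBD2. The 6 summits of A17 lay within 19 bp, those of A7 within 22 bp and those of A1 within 34 bp.

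A18 (chr16:450199-450709), beyond A17, had the highest fold of both windows in siCHD3 and in siCHD4. It reached 24.2 in siCHD3 (top 2.62%) and 12.7 in siCHD4 (top 3.50%), against 5.02 in siMBD2 (top 81.4%) and 7.22 in siNC (top 15.6%), and had no peak in siCHD5 or siMBD3. Pileups were 46 fragments in siCHD3, 39 in siCHD4, 14 in siMBD2 and 55 in siNC. Scaled to the depth of each list, the siNC summit corresponds to 8.26 fragments in siCHD3, 19.7 in siCHD4 and 11.9 in siMBD2. The pileup exceeded the scaled one most in siCHD3, a difference between pooled lists that was not tested. An excess was not particular to A18, since siCHD3 pileups exceeded the scaled ones at all 10 siNC regions called there. At A1 it was 47 against 24.8. The siCHD5 list was the deepest of the knockdown lists, and its chance of calling the thinned siNC summit (36.3 fragments) was 100%, but its nearest peak was 8081 bp away. In siMBD3 that chance was 71.0%, and the nearest peak (A19) was 1607 bp away.

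A6 (chr16:115645-115978) lacked a siMBD2 peak. Its fold was 10.4 in siCHD3, 4.76 in siCHD4, 9.79 in siCHD5, 5.82 in siMBD3 and 5.11 in siNC, and its 5 summits lay within 8 bp. At the siMBD2 depth, the siNC summit had a 95.1% chance of passing. A21 (chr16:537660-538098) lacked a siMBD3 peak, with a fold of 6.03 in siCHD3, 3.94 in siCHD4, 6.25 in siMBD2 and 8.37 in siCHD5, against 4.42 in siNC. The chance of a call there was 54.9%. A21 was of rank top 24.5% in siCHD5 and below the top 50% of the 4 other lists that held it.

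A8 (chr16:157073-157405) and A9 (chr16:167773-168138) shared a pattern, with peaks in siCHD5, siMBD2, siMBD3 and siNC and none in siCHD3 or siCHD4. A8 had a fold of 8.17 in siMBD2, 7.17 in siMBD3 and 4.99 in siCHD5, against 4.05 in siNC. Its siNC pileup was 98 fragments, and the chance that the siNC summit passed was 81.7% at the siCHD3 depth and 99.93% at the siCHD4 depth. A9 had a fold of 4.81 in siMBD2, 8.05 in siMBD3 and 5.08 in siCHD5, against 3.13 in siNC. At A9 the chances were 24.5% in siCHD3 and 60.2% in siCHD4, and whether depth had a part in these absences was not tested. The siMBD3 list held A9 although the chance there was 12.5%.

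A4 (chr16:72636-72996) was called in siCHD3 (fold 5.20) and siNC (fold 5.98), with summits 53 bp apart. Its siNC summit had a chance of passing of 99.9998% at the siCHD5 depth, 97.0% at the siCHD4 depth, 76.9% at the siMBD2 depth and 55.8% at the siMBD3 depth. A14 (chr16:412188-412439) was called in siCHD3 (fold 4.77), siCHD5 (4.95), siMBD2 (4.61) and siNC (3.05), at low rank in each (top 77.9% to top 95.5%). Its chance of a call was 75.9% in siCHD4 and 22.1% in siMBD3, the lists that lacked it.

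A12 (chr16:368760-368978) and A16 (chr16:436538-437041) were called in siNC and in no knockdown list, 2 of 27 regions (7.41%), against 5.30% of all regions. They were the siNC peaks of lowest pileup in the windows. A12 had a fold of 4.83 and 21 fragments, and A16 a fold of 4.04 and 15 fragments. A16 had 2 summits in 1 peak, the only such peak of the windows. For A12 the chance of a call ran from 27.0% in siMBD3 to 99.2% in siCHD5. For A16 it was at most 78.1% (siCHD5).

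**Figure D3:**
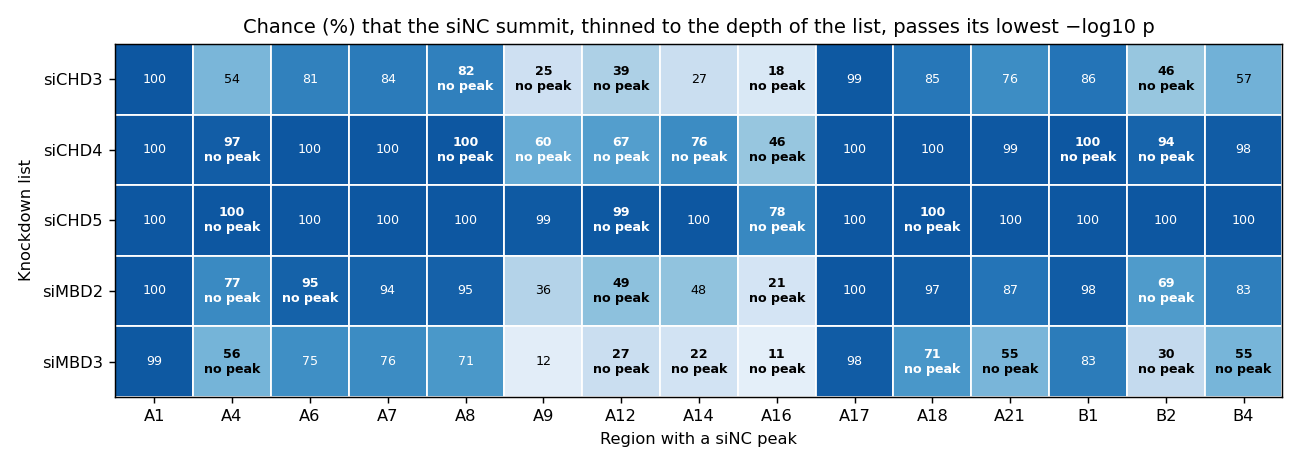
Chance, in percent, that the siNC summit of a region (columns) still passes the lowest −log10 p of a knockdown list (rows) after thinning to the depth of that list. Bold cells marked "no peak" are regions not called there. In siCHD4, 8 regions have chances over 99%, and of these A8 and B1 have no peak. In siCHD5, 13 regions do, and of these A4, A12 and A18 have no peak.

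Of the 27 regions, 12 had no siNC peak, which was 44.4% (interval 25.5 to 64.7), against 33.9% of all regions. Of these 12, A3, A10, A23 and B3 were called in more than 1 list. A3 (chr16:65129-65413) had a fold of 8.18 in siMBD2, 6.48 in siMBD3 and 5.81 in siCHD5, on 23 fragments in siMBD2, 14 in siMBD3 and 42 in siCHD5. At the siNC depth, its pileups correspond to 63.6 fragments from siCHD5, 106 from siMBD2 and 111 from siMBD3. Only lists that called A3 enter these values, which may therefore run high. The nearest siNC peak, A1, was 3904 bp away. A10 (chr16:239025-239261) had a fold of 6.92 in siCHD3 and 5.34 in siCHD4, on 9 fragments in siCHD3 and 10 in siCHD4. A23 (chr16:545446-545739) had a fold of 4.39 in siCHD5 and 4.95 in siMBD2, on 19 fragments in siCHD5 and 9 in siMBD2.

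Of the other 8, A2, A5, A11, A13 and A15 were called in siCHD3 alone, 5 of 27 regions (18.5%), against 14.7% of all regions. A5 (chr16:97216-97496, fold 9.13) and A15 (chr16:419918-420236, fold 11.1) led them and are named because of these values. A5 rested on 13 fragments and ranked in the top 16.2% of the siCHD3 list, and A15 on 15 fragments in the top 9.41%. A2, A11 and A13 had folds of 3.46 to 5.08 on 4 to 7 fragments. A19 and A22 were called in siMBD3 alone and A20 in siMBD2 alone, each on 4 to 6 fragments. In all, 10 of 27 regions (37.0%, interval 19.4 to 57.6) were called in 1 list, against 31.6% of all regions.

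A long stretch of the alpha window had few peaks. From the end of A9 to the start of A12, 200.6 kb, the siNC list had none. The gap after A9 reached A14 in siCHD5 (244.1 kb) and siMBD2 (244.2 kb), and A17 in siMBD3 (273.7 kb). The siCHD3 and siCHD4 lists had no peak at A9. Their longest gaps were 111.0 kb in siCHD3 (A11 to A13) and 202.6 kb in siCHD4 (A10 to A17). Over all 11 gaps between neighbouring siNC peaks of the alpha window, that one included, the shortest was 4.81 kb and the median 24.1 kb. In the beta window the siNC gaps were 80.5 kb (B1 to B2) and 175.7 kb (B2 to B4), and B3 lay within the wider one.

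Each knockdown list was then set against siNC over both windows. The windows held 15 siNC peaks, 12 in alpha and 3 in beta. Of these, 5 had no siCHD3 peak (33.3%, interval 11.8 to 61.6), against 35.4% of the whole siNC list. The siCHD4 list lacked 8 (53.3%, interval 26.6 to 78.7), where 41.5% of the whole siNC list was lacking. The siCHD5 list lacked 4, all in the alpha window (26.7%, interval 7.79 to 55.1), where the whole-list share was 21.5%. The siMBD2 list lacked 5 (33.3%, interval 11.8 to 61.6; whole list 34.9%) and the siMBD3 list 8 (53.3%, interval 26.6 to 78.7; whole list 38.5%). All 5 intervals held the share of the whole list, so no difference between the globin windows and the rest was detectable with 15 peaks. On chromosome 16 as a whole the missing share ran from 24.4% (siCHD5) to 44.1% (siCHD4), and on chromosome 11 from 20.5% to 42.1% in the same lists.

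Peaks called in a knockdown list with no siNC peak were counted in the same way. In siCHD3, 7 of 17 peaks had no siNC partner (41.2%, interval 18.4 to 67.1), against 32.6% of the whole siCHD3 list. The siCHD4 windows had 2 of 9 (22.2%, interval 2.81 to 60.01), against 16.8%, and siCHD5 2 of 13 (15.4%, interval 1.92 to 45.4), against 9.41%. In siMBD2, 4 of 14 were added (28.6%, interval 8.39 to 58.1), against 9.30%, and in siMBD3, 4 of 11 (36.4%, interval 10.9 to 69.2), against 13.4%. The window share was farthest above the whole-list share in siMBD2 and siMBD3, but all 5 intervals held the whole-list share.

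**Figure D4:**
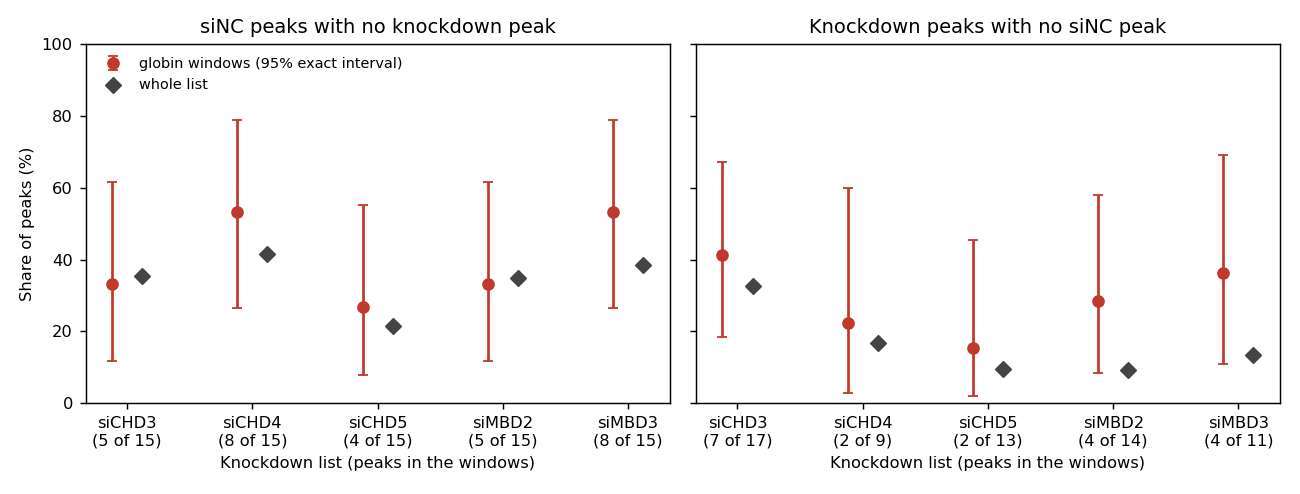
Share of siNC peaks with no knockdown peak (left) and of knockdown peaks with no siNC peak (right), in percent, for the globin windows (red, with exact 95% interval) and the whole list (grey diamond). The interval of the windows holds the share of the whole list in all 10 comparisons.

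The counts were also set beside those that thinning the 15 siNC summits to each depth would give. At the siCHD3 depth 5.41 missing peaks were expected and 5 observed. At the siMBD2 depth 3.51 were expected and 5 observed, and at the siMBD3 depth 6.58 and 8. The gap was wider at the siCHD4 depth, with 1.63 expected and 8 observed, and at the siCHD5 depth, with 0.241 expected and 4 observed. Over the whole siNC list, 12.2% were expected missing in siCHD4 and 41.5% observed, and in siCHD5 3.05% were expected and 21.5% observed. In siMBD2 24.2% were expected and 34.9% observed, and in siCHD3 33.1% were expected and 35.4% observed. In siMBD3 the whole list went the other way, with 41.6% expected and 38.5% observed. These differences were not tested. At the siNC regions that a knockdown list did call, its summit pileup exceeded the thinned siNC pileup in 10 of 10 regions in siCHD3, 7 of 7 in siCHD4, 7 of 11 in siCHD5, 10 of 10 in siMBD2 and 7 of 7 in siMBD3. The chances may therefore run low, although a region had to pass the threshold to enter this count. The same share over the whole lists was not computed, so these counts show nothing particular to the globin loci. The expected counts also hold no variation between libraries, peak length or q, so a gap between expected and observed cannot be read as loss beyond depth. In siCHD4, 11 of the 15 siNC regions had a chance of a call over 90%, and of these A4, A8, B1 and B2 were missing. In siCHD5, 14 had such a chance, with A4, A12 and A18 missing, and in siMBD2 7 did, with A6 missing. In siCHD3 and siMBD3, 2 each had such a chance, and none was missing. The same share over the whole siNC list was not computed, so these absences are not shown to be particular to the globin loci.

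Where a siNC peak had a partner, the summits nearly coincided. The median distance between the knockdown and the siNC summit was 21.5 bp in siCHD3 (10 regions), 4 bp in siCHD4 (7), 9 bp in siMBD2 (10), 6 bp in siMBD3 (7) and 9 bp in siCHD5 (11). The largest was 53 bp, at A4 in siCHD3.

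The globin peaks had a higher median fold than the whole list in siCHD3, siCHD4 and siMBD3 and a lower one in siCHD5, siMBD2 and siNC, which was not tested. Their median fold was 6.92 in siCHD3 (whole list 6.23), 5.18 in siCHD4 (5.04), 6.30 in siMBD2 (6.62), 7.57 in siMBD3 (6.71), 5.26 in siCHD5 (6.54) and 5.00 in siNC (5.22). Of the 15 siNC peaks, 6 stood in the top 50% of the siNC list. Median widths were 241 bp (siMBD2) to 307 bp (siNC), and whole-list medians 242 bp (siMBD3) to 304 bp (siNC).

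Peaks just outside the windows did not enter the counts. On chromosome 16 the peak nearest the window was at chr16:603737-604021 in siCHD3 (fold 3.46). The first one beyond it was at chr16:642538-642757 in siCHD5 (fold 4.61) and at chr16:650981-651183 in siNC (fold 4.04), and the last siNC peak inside was that of A21. On chromosome 11 the siNC peaks on either side were chr11:5025730-5026067 (fold 7.92) and chr11:5497508-5497769 (fold 5.77), with B1 and B4 the first and last inside.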

How the data were processed

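CTCF ChIP-seq of HEK293T cells in 6 conditions was analysed from 6 deposited lists of narrow peaks whose peak names show 3 replicates called together. Per the submitters' processing notes, the build was hg19 and the tools were MACS2 2.1.2, Bowtie2 2.3.4, bedtools 2.25.0, FastQC 0.11.7, deepTools 3.5.0 and SAMtools 1.9, with roles and settings not given in the sources used here. Deposited columns were taken as fold enrichment at the summit (a ratio), −log10 of p and −log10 of q, a summit offset and a display score, which was not used. The smallest −log10 q was 1.30 to 1.31 in the authors' lists.

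Lines with the same start and end were counted once, at the summit of highest fold, on chromosomes 1 to 22 and X. Overlap required 1 bp. Fold was read as (pileup + 1)/(background + 1) and p as the upper tail of a Poisson distribution, and both were solved for pileup and background. In all lists, 100% of peaks had a solution with a whole pileup (tolerance 0.01%), against at most 1.87% after shuffling p. Read totals per sample were not used here. The chance of a call used binomial thinning of the siNC pileup and each list's lowest p. Overlap and pileup were tested on simulated data, and thinning at a single simulated setting. The simulated pileups and backgrounds did not reach the highest siNC values of the windows.

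The windows, lists and tests were chosen with earlier results of these data known. All regions of a window were to be named if it held 15 or fewer, otherwise the 10 of highest siNC fold, up to 5 absent from at least 4 knockdown lists and up to 5 without a siNC peak in at least 2. Other regions were added for completeness, after their values were seen. Alternatives were a −log10 q of at least 10, reciprocal overlap of 50%, summits within 100 bp, peaks within 1 kb, lists of equal length (25358 peaks), joining within 500 bp, peaks fully inside the windows and windows widened by 100 kb. Weighting by the chance of a call and leaving out a list were chosen after seeing the data. Computation used Python 3.11.15, numpy 2.4.6, scipy 1.17.1, pandas 2.3.3 and matplotlib 3.10.9.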

Additional observations from a re-analysis of the deposited data

How the results depend on the processing

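No paired analysis was possible because each list pools the 3 replicates of a condition. Over 9 alternatives per knockdown, the missing share stayed within its interval in all 45 values, from 18.2% to 63.6%. These intervals are wide, so staying within them says little of stability. Overlap and summit rules, peaks within 1 kb and peaks fully inside the windows left it as reported. Windows widened by 100 kb gave 7 (siCHD3), 11 (siCHD4), 6 (siCHD5), 9 (siMBD2) and 11 (siMBD3) of 20 missing. A −log10 q of at least 10 in the siNC list alone gave 2 (siCHD3), 4 (siCHD4), 2 (siCHD5), 3 (siMBD2) and 5 (siMBD3) of 11 missing. Set for both lists, it raised the share in each, to 5 (siCHD3), 7 (siCHD4), 3 (siCHD5), 6 (siMBD2) and 6 (siMBD3) of 11. Lists of equal length gave 3 to 5 of 11. Chance weighting gave 21.8% in siCHD3 and 38.9% in siMBD3. Of 40 added shares, 38 stayed within their interval, which was also wide. The other 2 were siCHD4 at that threshold, set for both lists or for its own, where 0 of 4 peaks were added, since A10 and B3 did not pass. There the windows kept 8 of 17 siCHD3 peaks, 4 of 9 siCHD4 peaks, 6 of 14 siMBD2 peaks and 7 of 11 siMBD3 peaks. The stricter threshold itself removes the others. Regions called in all lists numbered 2 to 4, but 5 without siMBD3, the shallowest list. Few peaks and fragments limit all shares.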
